A study of Homo sapiens with 2 samples.

Results

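The 8 genes described here, CDX2, ISL1, HAND1, TBX3, GABRP, VTCN1, IGFBP3 and TP63, mark trophectoderm, amnion or both, and were taken by symbol from the 33538 genes counted in single H1 cells, a widely used human embryonic stem cell (hESC) line. Each of the 8 symbols matched 1 gene. Cells had been held in mTeSR1 with 50 ng/ml bone morphogenetic protein 4 (BMP4) for 48 h in 2 libraries, and 1 library per genotype means that no comparison between them has a replicate. The library labelled WT came from unmodified H1 cells. The library labelled GATA3 KO came from KO-GATA3-06, a single clone drawn from an H1 line that carries a doxycycline-inducible Cas9 cassette at AAVS1. Clone, cassette and genotype therefore cannot be told apart. For the library labelled WT the protocol field says 1 h of BMP4, whereas the title and the duration field say 48 h, and the latter was used. GATA3 stood at 12.7 CPM (UMIs per 1000000) in the library labelled WT and at 10.9 CPM in the library labelled GATA3 KO. Tags from the 3′ end also count an edited transcript, so these levels do not check the labels.

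The trophectoderm is the outer layer of the blastocyst and gives rise to the trophoblast of the placenta, whereas the amnion is an epithelium that forms from the epiblast next to the embryonic disc. Both are BMP-responsive, and they share many transcription factors and keratins, so that hESCs treated with BMP4 can carry genes of either. The question for these 8 genes was which of them were present in the same cells, and whether the cells with CDX2 also carried ISL1 or GABRP. CDX2 is a homeobox factor that specifies trophectoderm in the mouse and also marks posterior streak derivatives. ISL1 is a LIM-homeobox factor of amnion and of cardiac progenitors. HAND1, a basic helix-loop-helix factor, and TBX3, a T-box repressor, are used in trophoblast, amnion and mesoderm. GABRP is a subunit of the GABA-A receptor and VTCN1 an inhibitory ligand of T cells, IGFBP3 is a secreted carrier of insulin-like growth factors, and TP63 is a p53-family factor of epithelial progenitors.

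In GRCh38 with the GENCODE annotation, CDX2 lies on the minus strand of chromosome 13 (27960918 to 27969315) and TBX3 on the minus strand of chromosome 12 (114670255 to 114684175). Chromosome 5 holds ISL1 (51383448 to 51394730, plus strand), HAND1 (154474972 to 154478227, minus strand) and GABRP (170763350 to 170814047, plus strand). VTCN1 lies on chromosome 1 (117143587 to 117210960, minus strand), TP63 on chromosome 3 (189631389 to 189897276, plus strand) and IGFBP3 on chromosome 7 (45912245 to 45921874, minus strand). All 8 are protein-coding, and none overlaps another protein-coding gene on its own strand.

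The promoters of CDX2, ISL1 and HAND1 are shown because these 3 transcription factors were found in the same cells, as given further on. The RefSeq table matched 7 of the 8 genes, TBX3 being the other. The 250 bases before the annotated start are given 5′ to 3′ on the strand of the gene in GRCh38.p14, for CDX2 at chr13:27969316-27969565 on the minus strand, for ISL1 at chr5:51383198-51383447 on the plus strand and for HAND1 at chr5:154478228-154478477 on the minus strand. Capitals mark matches to the GATA motif (AGATAA or TGATAA) or to the TFAP2 motif (GCCNNNGGC), both searched on both strands.
CDX2: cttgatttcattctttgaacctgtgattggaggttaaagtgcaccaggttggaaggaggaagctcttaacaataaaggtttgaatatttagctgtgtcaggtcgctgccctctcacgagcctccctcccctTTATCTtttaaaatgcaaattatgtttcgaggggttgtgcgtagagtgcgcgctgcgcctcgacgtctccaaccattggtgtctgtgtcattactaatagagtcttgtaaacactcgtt
ISL1: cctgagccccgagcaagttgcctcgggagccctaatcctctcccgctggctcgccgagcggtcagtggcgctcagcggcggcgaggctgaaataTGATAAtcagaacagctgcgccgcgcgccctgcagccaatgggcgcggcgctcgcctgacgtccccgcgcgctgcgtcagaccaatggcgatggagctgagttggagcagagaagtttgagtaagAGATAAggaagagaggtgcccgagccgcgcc
HAND1: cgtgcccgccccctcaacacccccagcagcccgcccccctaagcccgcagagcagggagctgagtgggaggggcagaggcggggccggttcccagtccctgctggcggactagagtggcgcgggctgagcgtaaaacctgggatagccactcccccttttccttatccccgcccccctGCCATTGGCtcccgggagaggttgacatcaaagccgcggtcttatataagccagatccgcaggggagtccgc
The CDX2 promoter held 1 GATA match, whose first base lay 119 bases before the start. In ISL1 there were 2 GATA matches, at 156 and 31 bases before the start. HAND1 held no GATA match and 1 TFAP2 match, at 72 bases. A GATA match was present in 14.6% of the 35116 promoters of this length in the table and a TFAP2 match in 19.8%, and a match is a description of the letters alone. The promoters of GABRP, IGFBP3 and TP63 held neither motif, and that of VTCN1 held 1 TFAP2 match, at 152 bases.

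The deposited files held 3802 cells and 200569649 UMIs in the library labelled WT, and 6221 cells and 284280464 UMIs in the library labelled GATA3 KO. The limits of the study, 7500 detected genes and 25% mitochondrial UMIs, kept 2519 and 4450 cells, with medians of 44415 and 43131.5 UMIs. In all, 8 cell barcodes occurred in both libraries. Levels are CPM of the UMIs summed over cells, with 95% intervals that are exact Poisson, and for a share of cells the 95% interval is exact Clopper-Pearson. Both cover counting error only. Each molecule gives 1 tag whatever its length, so CPM values can be set side by side between genes. A ratio is the log2 of CPM plus 1 in GATA3 KO divided by CPM plus 1 in WT, where WT and GATA3 KO stand for the libraries so labelled.

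HAND1 and TBX3 were the most abundant of the 8 genes in both libraries, with overlapping intervals in GATA3 KO, and TP63 and VTCN1 were close to undetected. Among cells within the limits, HAND1 was at 11.4 CPM (10.8 to 12.1) in WT and 12.6 CPM (12.1 to 13.1) in GATA3 KO, a log2 ratio of 0.13 (0.04 to 0.23). TBX3 had 8.62 CPM (8.05 to 9.21) in WT and 11.6 CPM (11.1 to 12.1) in GATA3 KO, with a ratio of 0.39 (0.29 to 0.50). ISL1 lay below them, at 4.65 CPM (4.24 to 5.09) in WT and 2.72 CPM (2.48 to 2.98) in GATA3 KO, with a ratio of -0.60 (-0.75 to -0.46). In WT the order continued with IGFBP3, CDX2 and GABRP, and the intervals of CDX2 and GABRP overlapped. IGFBP3 was at 3.38 CPM in WT and 6.01 CPM in GATA3 KO, a ratio of 0.68 (0.53 to 0.82), and in GATA3 KO it stood above ISL1. CDX2 stood at 1.61 CPM (1.37 to 1.88) in WT and at 2.28 CPM (2.06 to 2.52) in GATA3 KO, with a ratio of 0.33 (0.16 to 0.50). Over all deposited cells the CDX2 ratio was 0.097 (-0.03 to 0.22), an interval that includes 0. For GABRP the levels were 1.33 CPM (1.11 to 1.57) in WT and 1.04 CPM (0.90 to 1.21) in GATA3 KO, with a ratio of -0.19 (-0.37 to -0.01). Only 18 and 16 UMIs of TP63, and 3 and 12 of VTCN1, were counted in the libraries labelled WT and GATA3 KO.

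Of the 8 genes, 6 reached 1 CPM in a library. Past 1.5-fold, only IGFBP3 was higher and only ISL1 was lower in GATA3 KO. Over all 13523 genes of at least 1 CPM, 12.7% were higher and 8.08% were lower by that rule. The median log2 ratio was 0.09 over the 8 genes and 0.07 over all genes tested. With all deposited cells counted, none of the 6 was higher and ISL1, HAND1 and GABRP were lower, beside 10.5% higher and 8.34% lower among 13569 genes. Members of either direction were thus present within the limits, and which members passed the fold depended on the cells counted.

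The cells removed by the limit on detected genes held most of the ISL1, HAND1 and GABRP transcripts of the library labelled WT. These 1012 cells held 48.9% of the UMIs of that library, yet 69.8% of its ISL1, 71.3% of its HAND1 and 72.9% of its GABRP. The 1265 corresponding cells labelled GATA3 KO held 36.5% of the UMIs, and 31.0%, 34.6% and 37.9% of the same genes. In GATA3 KO the shares of the 3 genes thus lay near that of all UMIs, and in WT above it. This was not particular to them, as these WT cells also held 59.7% of the CDX2, 61.1% of the TBX3 and 73.5% of the IGFBP3. GATA3 (66.2%) and TFAP2A (65.0%) were above it too, while SOX2 stood at 50.5% and MIXL1 at 45.2%. Among cells above the limit, ISL1 was at 11.1 CPM (10.5 to 11.8) in WT and 2.12 CPM (1.85 to 2.42) in GATA3 KO, a log2 ratio of -1.96 (-2.11 to -1.80). HAND1 was at 28.9 and 11.5 CPM, a ratio of -1.26 (-1.36 to -1.17), and GABRP at 3.64 and 1.10 CPM, a ratio of -1.14 (-1.32 to -0.96). For CDX2 the levels were 2.46 CPM (2.16 to 2.79) in WT and 2.15 CPM (1.88 to 2.45) in GATA3 KO, and these intervals overlapped.

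Shallow cells of the library labelled WT were rich in the same genes. In the 548 WT cells within the limits that held fewer than 20000 UMIs, HAND1 was at 44.8 CPM (38.8 to 51.5), from 197 UMIs in 68 cells, beside 9.86 CPM (9.24 to 10.5) in the 1971 deeper cells. ISL1 was at 13.6 CPM in these shallow cells and at 4.23 CPM in the deeper ones. The 789 shallow cells labelled GATA3 KO gave 10.3 CPM for HAND1 and 3.11 CPM for ISL1, beside 12.7 and 2.70 CPM in the 3661 deeper cells, with overlapping intervals for both genes. The HAND1 ratio was -2.02 (-2.39 to -1.65) in shallow cells and 0.33 (0.23 to 0.44) in deeper cells within the limits. ISL1 was lower in GATA3 KO in all 3 sets of cells, whereas HAND1 and TBX3 were lower in shallow cells and above the limit and higher in between. The part of depth in these differences was not tested.

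**Figure D1:**
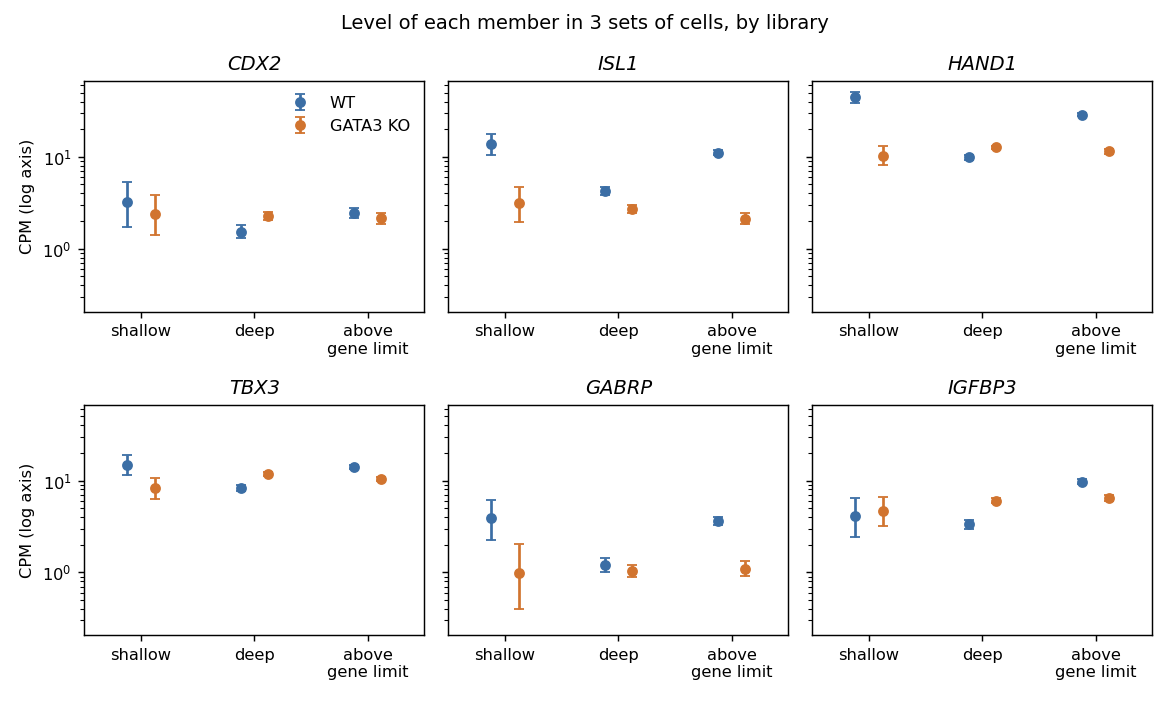
Levels of 6 members in CPM (log axis) in cells within the limits under 20000 UMIs (shallow), in those of at least 20000 UMIs (deep) and in cells above 7500 detected genes, with exact Poisson 95% intervals as bars. ISL1, HAND1 and GABRP of the library labelled WT (blue) lie above GATA3 KO (orange) in the shallow cells and above the gene limit, and HAND1 lies below it in the deep cells.

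A single cell held much of the IGFBP3 counted above the gene limit in WT. Its level there was 9.73 CPM in WT, and 294 of its 955 UMIs came from 1 cell. Without that cell it was 6.75 CPM, beside 6.52 CPM in GATA3 KO. In the same WT cells the top cell held 6.15% of the ISL1, 5.11% of the HAND1 and 14.8% of the GABRP UMIs, and 5 of the 13 UMIs of VTCN1.

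To compare detection at equal depth, each cell within the limits was thinned at random to 20000 UMIs, which left out the shallow cells above. TBX3 was found in 10.3% of cells (203 of 1971) in WT and in 10.1% (368 of 3661) in GATA3 KO. HAND1 was found in 5.23% (4.29 to 6.30) and 6.66% (5.88 to 7.52), a difference of 1.44 points (0.11 to 2.71). ISL1 was found in 3.75% (2.96 to 4.69) and 3.0% (2.48 to 3.61), a difference of -0.75 points (-1.83 to 0.25). These transcription factors were thus present in a minority of cells in both libraries, and the intervals of the differences reached 0 for ISL1 and TBX3. CDX2 was found in 2.54% (50 cells, 1.89 to 3.33) and 3.09% (113 cells, 2.55 to 3.70), a difference of 0.55 points (-0.41 to 1.44). ISL1 or GABRP was found in 5.38% and 4.56%, a difference of -0.82 points (-2.09 to 0.38). At this depth no difference in the share of CDX2 cells, or of cells with ISL1 or GABRP, was detectable between the libraries within the limits. Other settings gave a difference for ISL1 or GABRP whose interval excluded 0, of -1.47 points (-2.50 to -0.51) at 10000 UMIs, -2.05 (-3.48 to -0.67) without thinning and -1.05 (-1.88 to -0.32) with at least 2 UMIs. For CDX2 the difference with at least 2 UMIs was 0.52 points (0.07 to 0.91). Over all cells within the limits at full depth, detection was 4.88% and 5.21% for CDX2, 6.55% and 4.90% for ISL1, 9.29% and 8.65% for HAND1 and 16.1% and 12.4% for TBX3.

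Transcripts of lysed cells can enter any droplet, so the same shares were taken in cells that should lack these genes, those with at least 5 UMIs of SOX2, a pluripotency factor. There were 565 such cells in WT and 2650 in GATA3 KO, with median depths before thinning of 47763 and 45910.5 UMIs, beside 48751 and 46208 over all thinned cells. CDX2 was found in 0.71% of them in WT and 0.68% in GATA3 KO, ISL1 in 0.35% and 0.53%, HAND1 in 0.53% and 1.32% and TBX3 in 1.59% and 1.77%. For these 4 genes the share over all cells was above this background in both libraries, with no overlap of intervals. GABRP was found in 1.59% (0.73 to 3.0) of SOX2-high cells in WT and 1.06% (0.70 to 1.52) in GATA3 KO, beside 2.13% (1.54 to 2.87) and 1.75% (1.35 to 2.23) over all cells. These intervals overlapped, although all cells include the SOX2-high ones. In cells with fewer than 5 SOX2 UMIs, GABRP was found in 2.35% (1.62 to 3.28) in WT, where the interval still overlapped that of SOX2-high cells, and in 3.56% (2.51 to 4.90) in GATA3 KO, where it did not. By these shares GABRP could not be told from background in WT or over the whole of GATA3 KO. In the SOX2-low cells of GATA3 KO it could. GABRP was nonetheless unevenly spread over WT cells, as given further on. There 12.6% of HAND1-positive cells held it, beside 1.55% of HAND1-negative cells. VTCN1 was found in 1 WT cell and in 8 GATA3 KO cells, 6 of them SOX2-high, and could not be told from background.

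IGFBP3 went the other way, being found in 12.9% (10.3 to 16.0) of SOX2-high cells in WT beside 6.29% (5.26 to 7.46) of all cells. In GATA3 KO the shares were 12.1% (10.9 to 13.4) and 10.7% (9.67 to 11.7). The library difference of IGFBP3, 4.36 points (2.84 to 5.83), stood beside a larger share of SOX2-high cells in GATA3 KO, and within SOX2-high cells the intervals of the libraries overlapped. In cells with fewer than 5 SOX2 UMIs they did not, at 3.63% (2.71 to 4.74) in WT and 6.82% (5.35 to 8.56) in GATA3 KO, nor in cells without SOX2, at 2.53% (1.48 to 4.03) and 8.56% (5.62 to 12.4). TP63 was found in 4 WT cells and 7 GATA3 KO cells, and in none of the SOX2-high cells, which allows shares of up to 0.531% and 0.113%. Of these few cells, 4 of 4 and 6 of 7 held TFAP2A, an AP-2 factor of surface ectoderm, amnion and trophoblast. In the library labelled WT all 4 also held HAND1 and TBX3.

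**Figure D2:**
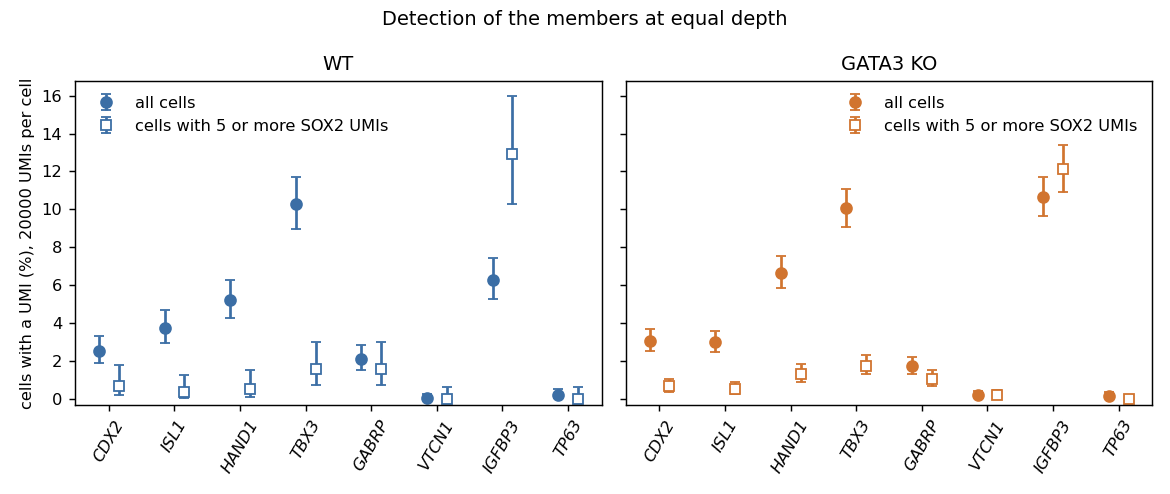
Share of cells with at least 1 UMI of each member after thinning to 20000 UMIs, over all cells (filled circles) and in cells with at least 5 SOX2 UMIs (open squares), with exact Clopper-Pearson 95% intervals as bars. CDX2, ISL1, HAND1 and TBX3 lie above their SOX2-high share in both libraries, GABRP overlaps it and IGFBP3 is at or below it.

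Positive cells differed in how many molecules they held. HAND1-positive cells held a mean of 3.53 UMIs (3.18 to 3.92) in WT and 3.67 UMIs (3.44 to 3.92) in GATA3 KO at equal depth, with up to 28 and 21 in a cell. ISL1-positive cells held 2.42 UMIs (2.08 to 2.80) in WT and 1.72 (1.48 to 1.98) in GATA3 KO. For TBX3 the order was the opposite, with 1.6 (1.43 to 1.78) and 2.21 (2.06 to 2.37). Thus ISL1 was counted less and TBX3 more per positive cell in GATA3 KO, while the shares of positive cells of both genes had differences whose intervals included 0. At least 3 UMIs of ISL1 were present in 24 of 74 positive WT cells (32.4%, 22.0 to 44.3) and in 17 of 110 in GATA3 KO (15.5%, 9.27 to 23.6). For TBX3 the counts were 27 of 203 (13.3%, 8.95 to 18.8) and 115 of 368 (31.3%, 26.5 to 36.3). CDX2 was sparse, as 44 of 50 WT cells and 83 of 113 GATA3 KO cells with it held a single UMI. A call of CDX2 in a single cell therefore rested on 1 molecule in most cases.

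CDX2, ISL1, HAND1 and TBX3 lay in cells with little or no SOX2. In cells without a SOX2 UMI, HAND1 was found in 13.6% (91 of 671) in WT and 46.9% (137 of 292) in GATA3 KO, and TBX3 in 23.1% and 65.4%. In cells with 10 or more SOX2 UMIs, HAND1 was found in 0.78% (1 of 129) and 1.08% (14 of 1300). CDX2 was found in 4.92% of WT and 17.1% of GATA3 KO cells without SOX2, and ISL1 in 9.39% and 23.3%. SOX2 itself was at 150 CPM in WT and 389 CPM in GATA3 KO. SOX2-free cells were fewer in GATA3 KO and a larger share of them held each of these 4 genes, and the intervals of the libraries did not overlap for any of the 4. IGFBP3 showed the reverse order in WT, with 2.53% of SOX2-free cells and 13.3% of cells with 5 to 9 SOX2 UMIs.

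**Figure D3:**
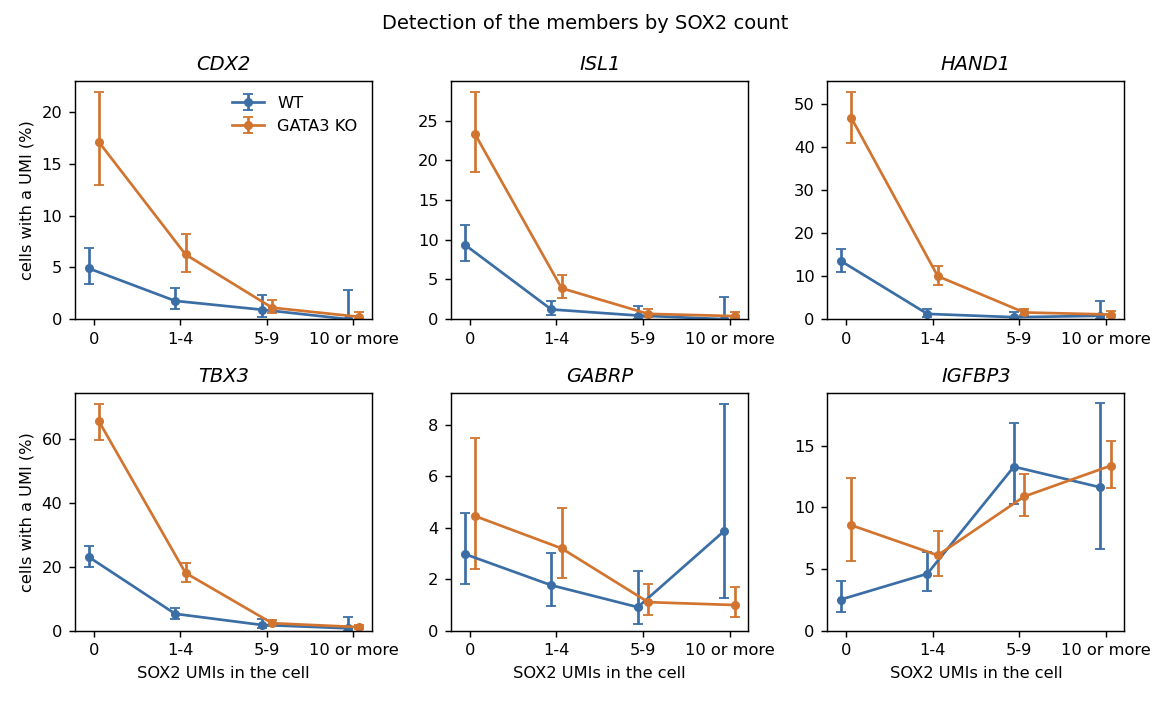
Share of cells with at least 1 UMI of each of 6 members after thinning, by the number of SOX2 UMIs in the cell, with exact Clopper-Pearson 95% intervals as bars. CDX2, ISL1, HAND1 and TBX3 are highest in cells without SOX2 in both libraries and are there higher in GATA3 KO (orange) than in WT (blue), while IGFBP3 is higher at 5 or more SOX2 UMIs.

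The 4 factors CDX2, ISL1, HAND1 and TBX3 were found together far more often than the product of their shares. ISL1 and HAND1 were found in the same cell 35 times in WT, where 3.87 cells would be expected if they were independent, a ratio of 9.05 (6.30 to 12.6). In GATA3 KO there were 68 such cells and 7.33 expected, a ratio of 9.28 (7.20 to 11.8). CDX2 and ISL1 shared 13 cells in WT (ratio 6.93, 3.69 to 11.8) and 19 cells in GATA3 KO (5.60, 3.37 to 8.74). All 6 pairs among the 4 genes had ratios between 3.88 and 9.05 in WT and between 5.60 and 9.28 in GATA3 KO. At least 3 of the 4 genes were found in 30 WT cells (1.52%) and 94 GATA3 KO cells (2.57%), where 0.93 and 1.99 cells would be expected from independent genes. All 4 were found in 8 and 15 cells. The cells with 1 of the 4 genes alone were fewer than independence gives, 210 beside 369 in WT and 250 beside 711 in GATA3 KO.

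Against all genes found in 1% to 20% of cells, these ratios were uncommon. In WT, 7.95% of 7572 such genes were found with CDX2 at least 2 times as often as the product of shares, 8.4% with ISL1, 6.77% with HAND1 and 4.32% with TBX3. In GATA3 KO the shares of 7203 genes were 7.57%, 8.91%, 7.21% and 6.43%. Of the 5 other members in that range, GABRP and IGFBP3 included, 3 passed with CDX2 in WT, and 4 passed with CDX2 in GATA3 KO and with ISL1, HAND1 and TBX3 in both libraries. IGFBP3 was the member that did not pass in each case, joined by GABRP for CDX2 in WT. With IGFBP3 itself, 4.81% of genes passed in WT and 0.305% in GATA3 KO, and of the 5 members only GABRP passed, in WT (ratio 3.03, 1.31 to 5.97). IGFBP3 thus stood outside the group formed by the other members.

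GABRP was found more often in cells with HAND1 or ISL1 than in cells without them. It was present in 12.6% of HAND1-positive cells (13 of 103) beside 1.55% of HAND1-negative cells in WT, and in 8.20% (20 of 244) beside 1.29% in GATA3 KO. With ISL1 the shares were 13.5% (10 of 74) beside 1.69% in WT and 6.36% (7 of 110) beside 1.61% in GATA3 KO. CDX2-positive cells held GABRP in 1 of 50 cells in WT and 10 of 113 in GATA3 KO, or 2.0% (0.05 to 10.6) and 8.85% (4.33 to 15.7). These intervals overlapped, so a difference between the libraries was not detectable.

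**Figure D4:**
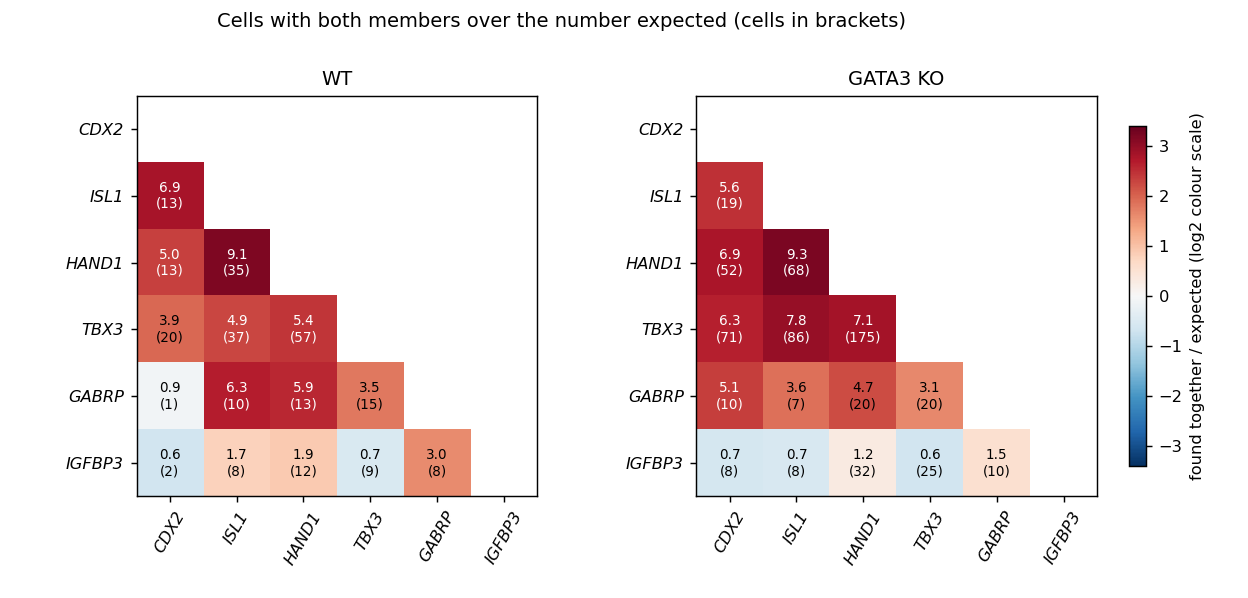
Number of cells in which 2 members were found together divided by the number expected from their shares, at equal depth, with the number of cells in brackets and the ratio on a log2 colour scale. The pairs among CDX2, ISL1, HAND1 and TBX3 are between 3.88 and 9.28 in both libraries, and the row of IGFBP3 is pale apart from GABRP in WT (3.03).

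Most cells with CDX2 held neither ISL1 nor GABRP, yet a larger share of them held either gene than of cells without CDX2. In WT, 13 of 50 CDX2 cells (26.0%, 14.6 to 40.3) held ISL1 or GABRP, beside 4.84% (3.92 to 5.90) of cells without CDX2. In GATA3 KO the shares were 22.1% (25 of 113, 14.9 to 30.9) and 4.0% (3.38 to 4.70). The shares in CDX2 cells overlapped between the libraries. ISL1 alone gave 26.0% beside 3.18% in WT and 16.8% beside 2.56% in GATA3 KO. Seen from the other side, 93 WT cells and 142 GATA3 KO cells held ISL1 or GABRP without CDX2, beside 13 and 25 with CDX2. Counting ISL1 alone, 61 WT cells and 91 GATA3 KO cells held it without CDX2. Among cells above the gene limit, 14 of 33 CDX2 cells in WT (42.4%, 25.5 to 60.8) and 10 of 48 in GATA3 KO (20.8%, 10.5 to 35.0) held ISL1 or GABRP, beside 9.50% and 3.86% without CDX2. A cell without an ISL1 UMI at this depth was not shown to lack the transcript.

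Of the 10 amnion companions listed further on, 6 in WT and 7 in GATA3 KO were found in at least 5% of the CDX2 cells with ISL1 or GABRP, and of the 16 trophoblast companions 7 and 8. Of these, 5 and 6 amnion companions and 6 and 6 trophoblast companions were found in a share at least 2 times that in cells with none of the 3 genes. With 13 cells in WT, a gene found in 1 cell passed the 5%. The share of all genes that pass was not taken, so these counts describe the lists only. TFAP2A was found in all 13 CDX2 cells with ISL1 or GABRP in WT and all 25 in GATA3 KO, as was MSX2, a BMP-induced homeobox gene. DLX5, a homeobox gene of the same ectodermal programme, was found in 69.2% and 88.0%, and HAND1 in 69.2% (38.6 to 90.9) and 88.0% (68.8 to 97.5). In cells with none of the 3 genes HAND1 was found in 3.34% and 3.90% and TFAP2A in 15% and 19.6%. Over all thinned cells within the limits, MSX2 was found in 39.3% and 25.2% and DLX5 in 4.36% and 9.01%. The streak gene MIXL1 was found in 2 of the 13 WT cells and 1 of the 25 GATA3 KO cells, and TBXT in 1 and 0 cells, the latter allowing a share of up to 12.0%. CDX2 was thus found with TFAP2A, MSX2, DLX5 and HAND1 in most of these 13 and 25 cells, and with MIXL1 or TBXT in few. These cells were chosen for ISL1 or GABRP, and ISL1-positive cells as a whole had a like profile. They held TFAP2A in 81.1% in WT and 88.2% in GATA3 KO, and HAND1 in 47.3% and 61.8%. MIXL1 was found in 24.3% and 3.64% of them. The profile was therefore not shown to be particular to cells with CDX2.

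The CDX2 cells without ISL1 or GABRP differed between the libraries. In WT 62.2% of 37 such cells (44.8 to 77.5) held MIXL1, 51.4% held EOMES and 40.5% (24.8 to 57.9) held TBXT, beside 39.7%, 41.0% and 24.5% of cells with none of the 3 genes. TFAP2A was found in 40.5% (24.8 to 57.9) of them and HAND1 in 10.8% (3.03 to 25.4). In GATA3 KO, 7.95% of 88 such cells (3.26 to 15.7) held MIXL1 and 11.4% (5.59 to 19.9) held TBXT, while 75.0% (64.6 to 83.6) held TFAP2A and 34.1% (24.3 to 45) held HAND1. In WT the interval of MIXL1 lay above that of cells with none of the 3 genes, those of EOMES and TBXT reached into theirs, and the intervals of MIXL1 and TFAP2A overlapped. In GATA3 KO the interval of TFAP2A lay above those of MIXL1 and TBXT. The streak genes were low in the whole library labelled GATA3 KO, where MIXL1 was found in 2.79% of cells with none of the 3 genes. Summed over 5 primitive streak genes, these CDX2 cells of GATA3 KO held 40.4 CPM, beside 12.2 CPM in cells with none of the 3 genes. In WT the sums were 309 and 245 CPM. Over all CDX2 cells of GATA3 KO, TBXT was found in 8.85% (4.33 to 15.7), beside 1.47% (1.10 to 1.92) of cells without CDX2. Streak genes were thus above the cells with none of the 3 genes in both libraries. SOX17, an endoderm and germ cell factor, was found in 5 of the 37 cells in WT and in 0 of the 88 in GATA3 KO, which allows up to 3.41%.

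Depth and doublet scores were set beside these classes, and their part in the shares was not tested. Median depth before thinning was 44623 to 49338 UMIs over the 3 positive classes in WT and 45506 to 54834 in GATA3 KO, beside 48894 and 46136.5 in cells with none of the 3 genes. Median doublet scores were 0.045 to 0.065 in WT and 0.019 to 0.049 in GATA3 KO, beside 0.076 and 0.079. Of the CDX2-positive cells, 0 were among those with the highest doublet scores.

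**Figure D5:**
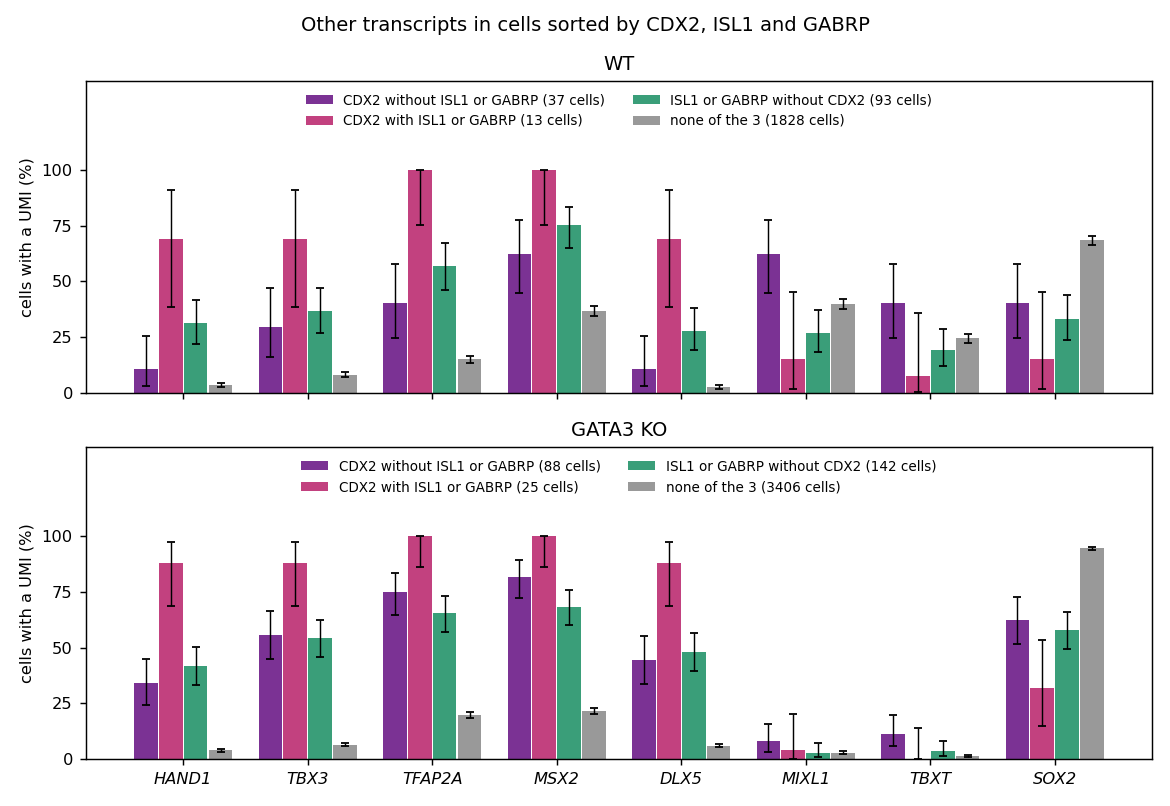
Share of cells with at least 1 UMI of each of 8 genes at equal depth, in cells sorted by the presence of CDX2 and of ISL1 or GABRP, with exact Clopper-Pearson 95% intervals as bars. Cells with CDX2 and ISL1 or GABRP (pink) hold TFAP2A and MSX2 in every case, and cells with CDX2 alone (purple) hold MIXL1 in 62.2% of cases in WT and 7.95% in GATA3 KO.

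Cells with HAND1 or TBX3 also held TFAP2A more often than cells without. It was found in 64.1% of HAND1-positive cells beside 15.5% of the others in WT, and in 86.1% beside 18.8% in GATA3 KO. MIXL1 was found in 40.8% (31.2 to 50.9) of HAND1-positive cells in WT and in 39.3% of the others, a difference of 1.48 points (-8.36 to 11.9), and TBXT in 32.0% and 24.0%, with intervals that overlapped as well. TBX3 cells of the library labelled WT held TBXT in 49.3% (42.2 to 56.4) of cases beside 21.6% of TBX3-negative cells. So in WT TBX3 was present both in cells with TFAP2A and in cells with streak transcripts, whereas in GATA3 KO 87.8% of TBX3-positive cells held TFAP2A and 4.08% held TBXT. GATA3 transcript was found with all 4 factors in both libraries, for HAND1 in 22.4% of GATA3-positive cells beside 2.31% of GATA3-negative cells in WT and in 40.3% beside 2.60% in GATA3 KO.

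Other genes of amnion and trophoblast were taken from lists chosen with earlier results of these data known. Of 10 amnion companions, 9 reached 1 CPM, 5 were at least 1.5-fold higher in GATA3 KO and 0 were lower, with a median log2 ratio of 0.61. DLX5 was at 4.03 CPM in WT and 10.7 CPM in GATA3 KO (1.23, 1.10 to 1.35), and WNT6, a secreted Wnt ligand, at 3.14 and 7.61 CPM (1.05, 0.91 to 1.19), while MSX2 was at 40.3 and 38.3 CPM. Over all deposited cells the count fell to 3 higher and 0 lower, with a median of 0.27. Of the 33538 genes counted, 13523 reached 1 CPM within the limits, and of these 12.7% were higher and 8.08% lower. With all deposited cells these shares were 10.5% and 8.34%. Of 9 genes shared by amnion and trophoblast, 4 were higher and 0 lower (4 and 1 over all deposited cells), among them TFAP2A (16.7 and 37.7 CPM, 1.13) and GATA2 (2.02 and 7.75 CPM, 1.53). Of 16 trophoblast companions, 8 reached 1 CPM, 2 were higher and 3 were lower, with a median of 0.02. A share of 8 in 16 was not below that of all genes counted. The 8 below 1 CPM in both libraries included the trophoblast factors ELF5 and GCM1, the hormone subunit CGA, the aromatase gene CYP19A1 and the envelope genes ERVW-1 and ERVFRD-1, the last with 0 UMIs in the cells within the limits. The genes that reached 1 CPM, such as the transcription factor TEAD4 (22.8 and 37.5 CPM) and the transporter SLC7A2 (12.3 and 12.0 CPM), were also found in cells without CDX2, ISL1 or GABRP, TEAD4 in 36.4% of them in WT and 49.9% in GATA3 KO. The same held for the amnion list, as 49.3% of these cells in WT and 42.4% in GATA3 KO held at least 1 amnion companion. At least 1 trophoblast companion was found in 60.7% and 65.1% of them. ELF5, GCM1, CGA, CYP19A1, ERVW-1 and ERVFRD-1 were at 0.25 CPM or less in both libraries. VGLL1, a TEAD cofactor of trophoblast, was at 0.060 CPM in WT and 0.80 CPM in GATA3 KO, and the nuclear receptor gene NR2F2 at 0.40 and 3.38 CPM (1.64, 1.48 to 1.79).

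ISL1, HAND1 and TBX3 are also used in lateral and cardiac mesoderm, so genes of that tissue were counted too. Of 11 such genes, 7 stayed below 1 CPM in both libraries, HAND2, FOXF1, TBX20, NKX2-5 and TBX5 among them. PDGFRA, GATA4, GATA6 and KDR were the 4 that reached it, beside 13523 of the 33538 genes counted. Of these 4, 3 were at least 1.5-fold lower in GATA3 KO and 0 were higher. Over all genes tested, 8.08% were lower and 12.7% higher. The summed level of the 11 genes was 13.0 CPM in the CDX2 cells with ISL1 or GABRP in WT and 10.7 CPM in GATA3 KO, beside 96.4 and 45.2 CPM in cells with none of the 3 genes. In the CDX2 cells without ISL1 or GABRP it was 126 and 36.9 CPM. KDR, a receptor of vascular endothelial growth factor, made up most of these sums in WT, with 112 CPM in those CDX2 cells and 82.6 CPM in cells with none of the 3 genes. The summed level of the 10 amnion companions was 732 and 858 CPM in the CDX2 cells with ISL1 or GABRP, beside 58.0 and 80.6 CPM in cells with none of the 3 genes. In cells with ISL1 or GABRP and no CDX2 it was 308 and 481 CPM. In CDX2 cells without ISL1 or GABRP it was 199 and 490 CPM. The 16 trophoblast companions summed to 156 and 181 CPM in the CDX2 cells with ISL1 or GABRP, beside 48.2 and 59.6 CPM in cells with none of the 3 genes. Their sum was 90.7 and 119 CPM in cells with ISL1 or GABRP and no CDX2. It was 73.4 and 123 CPM in CDX2 cells without ISL1 or GABRP. Over all cells within the limits, MSX2 (40.3 and 38.3 CPM) was the highest of the amnion companions. TEAD4 (22.8 and 37.5 CPM) was the highest of the trophoblast companions. These sums were taken before thinning and are descriptions over few cells.

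The genes most like each member were ranked by phi, the correlation of presence and absence over the 1971 and 3661 thinned cells, by the lower of the libraries. MSX1, a BMP-induced homeobox gene, led the ranking for CDX2 (0.20 in WT and 0.26 in GATA3 KO) and ISL1 (0.43 and 0.41) and ranked 3 for HAND1 (0.38 and 0.57) and TBX3 (0.31 and 0.59). WNT6 and DLX5 followed for ISL1, and ANKRD1 and WNT6 led for HAND1. HAND1 was the gene most like TBX3 (0.35 and 0.55), followed by TFAP2A. For CDX2, WNT5B and DLX5 stood next to MSX1. IGFBP3 had no close partner, its highest being SFRP1, a secreted Wnt antagonist, at 0.19 and 0.09. All cells of a library share its depth and free RNA, so these values describe the 2 libraries only.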

How the data were processed

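Single cells were profiled in 2 libraries of H1 hESCs with the 10x Genomics 3′ v3 kit. The authors aligned reads with Cell Ranger 3.0.2 to its GRCh38 reference and deposited raw UMI counts per gene and cell barcode, with no limit on genes or mitochondrial share applied. Groups came from the deposited labels. The members, the gene lists and the rules were chosen with earlier results of these data known.

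Cells above 7500 detected genes or 25% mitochondrial UMIs were removed, after the methods of the study. Counts were summed per library and scaled to CPM. Ratios used a pseudocount of 1 CPM, which understates changes of low genes. Cells were thinned once to 20000 UMIs (seed 42), leaving 1971 and 3661 cells and leaving out 548 and 789. A cell was positive with at least 1 UMI. Scrublet (in scanpy 1.11.5) called 1 and 2 doublets, too few for a working call, so doublets were kept, and the 116 and 310 highest scores were removed as an alternative, 54 and 170 of them within the limits. Bounds on a log2 ratio were derived from an exact binomial interval on how the UMIs split between libraries, those on a co-detection ratio from the Poisson interval of the cells with both genes, and those on a difference of shares by squaring and adding the distances to both Clopper-Pearson bounds. A count of 0 was taken to allow 3 counts of the total. Calculations were tested on simulated data. With 1 library per group no test was made.

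Named genes were the 8 members, genes of the lists, and for members with at least 50 positive thinned cells in each library the 3 genes of highest phi among those found in 1% to 90% of cells. TMM factors came from edgeR. None of the members overlaps another protein-coding gene on its own strand in GENCODE.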

Additional observations from a re-analysis of the deposited data

How the results depend on the processing

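No paired analysis was possible because each group is 1 library. The limits on cells decided the direction of several ratios. With no upper limit on detected genes the log2 ratio was -0.68 for HAND1, -0.019 for TBX3 and -0.066 for IGFBP3, and with all deposited cells it was -0.67, -0.017 and -0.065. The intervals of TBX3 and IGFBP3 then included 0, as did that of CDX2, at 0.095 and 0.097. Per-cell CPM gave 0.019 for CDX2. The mean of per-cell CPM turned HAND1 to -0.68. The median over the 8 genes moved from 0.09 to -0.15 without the upper limit, to -0.14 with all cells, to -0.033 with per-cell CPM and to 0.26 with a pseudocount of 0.1 CPM. The difference in cells with ISL1 or GABRP moved from -0.82 points to -2.59 without the upper limit, to -2.60 with all cells and to -6.07 above the gene limit alone, and was -1.47 at 10000 UMIs, -2.05 without thinning and -1.05 with at least 2 UMIs. The share of CDX2 cells with ISL1 or GABRP became 42.4% above the gene limit in WT, and in GATA3 KO 34.5% without thinning and 6.67% (2 of 30 cells) with at least 2 UMIs. It stayed above the share in cells without CDX2 under every alternative run, although with at least 2 UMIs in GATA3 KO its interval (0.82 to 22.1) reached the 1.18% of those cells. A second random thinning, chosen after seeing the data, gave 29.3% in GATA3 KO. TMM scaling, at least 2000 genes and removal of the highest doublet scores moved none of the 8 ratios beyond its interval. All 6 pairs of CDX2, ISL1, HAND1 and TBX3 passed a ratio of 2 under every setting but 10000 UMIs, where 5 passed in WT. Depth limits the negatives, as most CDX2 calls rest on 1 UMI, and clone and genotype cannot be told apart.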
